A study of Mus musculus with 10 samples.

Results

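The 9 genes described here are Hpgd and 8 genes of the eicosanoid pathway, namely Ptgs1, Ptgs2, Alox5, Alox5ap, Lta4h, Ltc4s, Ptger2 and Ptger4, out of 24421 gene symbols listed in all libraries. Hpgd was chosen by its low level in Foxp3DTR mice compared with WT mice after MI in these same libraries, so that its values in this comparison are a description without a test. The other 8 genes were picked for their place in the pathway by name. The main pattern was a low Hpgd level in all 4 Foxp3DTR libraries, whereas none of the other 8 genes passed the test in any comparison.

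Eicosanoids are lipid mediators made from arachidonic acid, which phospholipases free from membranes. Cyclooxygenases (Ptgs1, Ptgs2) turn it into the precursor of prostaglandins, among them prostaglandin E2 (PGE2), which acts on monocytes and macrophages through the receptors EP2 (Ptger2) and EP4 (Ptger4), and 15-hydroxyprostaglandin dehydrogenase (Hpgd) takes the first step of its inactivation. In the other branch 5-lipoxygenase (Alox5) and its activating protein (Alox5ap) form leukotriene A4, from which Lta4h makes leukotriene B4, an attractant of neutrophils, and Ltc4s makes leukotriene C4.

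RNA sequencing was carried out on Ly6Chigh monocytes sorted from the spleen of male mice aged 8 to 10 weeks on day 5 after surgery. There were 3 libraries of WT mice (C57BL/6) after sham surgery (replicates 1, 2 and 3), 3 of WT mice after MI by permanent coronary ligation (replicates 2, 3 and 4) and 4 of Foxp3DTR mice after MI (replicates 1 to 4). In Foxp3DTR mice the Foxp3 promoter drives a human receptor for diphtheria toxin, and the ablation protocol gave 500 ng of the toxin on each of the 2 days before surgery and 250 ng on day 2 after it. The study describes the WT mice set against Foxp3DTR mice as given the toxin too, whereas the labels do not state this for each library. Foxp3DTR mice were analysed here only after MI, so whether their differences from WT mice depend on MI cannot be told. Genotype and Treg loss came together in these mice and cannot be told apart. Against WT mice after sham surgery, Foxp3DTR mice also differed in surgery, so genotype, Treg loss and MI cannot be told apart there. The study names WT mice after MI or sham surgery apart from toxin-treated WT mice. Whether the sham mice received toxin is thus not known, and toxin and surgery may not be separable in comparisons with them. All values are TPM (transcripts per 1e6, corrected for gene length and library size), each library was taken as 1 animal, and p values measure the spread between libraries.

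The depth carried by the tables was 3.13 to 8.40 M reads (M, 1e6) per library, lowest in sham library 2. This is below the read number that the study gives for sequencing, and the reason for the gap was not tested. Markers of the sorted cells were present in all libraries, with Csf1r at 519 to 933 TPM and Ccr2 at 906 to 1749 TPM, and Ly6g was not analysed here. Ly6c2 was at 3667 to 4757 TPM in Foxp3DTR mice, 1985 to 2689 TPM in WT mice after MI and 1498 to 2772 TPM after sham surgery. Ly6c1 was at 611 to 782, 208 to 511 and 111 to 400 TPM in the same order. The Foxp3DTR libraries thus lay above all WT libraries for both genes. Of the 6 markers found, 5 had a higher mean in Foxp3DTR mice than in WT mice after MI, and Csf1r a lower one. The part of this shift in the differences below was not tested. Sham library 3 stood apart from the other sham libraries, with summed T cell markers of 172 TPM (11.7 and 26.2 TPM in the other two) and summed neutrophil markers of 1709 TPM (801 and 727 TPM). Where a call or a sign named here rests on this library, the value without it is given.

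The genes spanned 3 orders of magnitude in level. Alox5ap was the most abundant with a mean of 1414 TPM over the 10 libraries, rank 42 of all symbols, followed by Hpgd (109 TPM, rank 1519), Lta4h (58.2 TPM), Ptger4 (43.2 TPM), Ptger2 (6.44 TPM), Ptgs2 (6.12 TPM), Ptgs1 (4.62 TPM), Alox5 (4.53 TPM) and Ltc4s (0.987 TPM). Among neighbours in this order, the ranges over libraries did not overlap for Alox5ap and Hpgd or for Ptger4 and Ptger2, and they overlapped for the other 6 pairs. Hpgd was above Lta4h in the 6 WT libraries and below it in all 4 Foxp3DTR libraries. Ptgs2 was above Ptgs1 in only 3 of 10 libraries, and its mean was 2.41 TPM without sham library 2. The monocytes thus carried far more RNA of the gene for the 5-lipoxygenase activating protein than of the lipoxygenase itself, Alox5ap standing 173 to 3908 times above Alox5 within a library, and the extreme value came from WT MI library 4, where Alox5 was at 0.423 TPM.

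**Figure D1:**
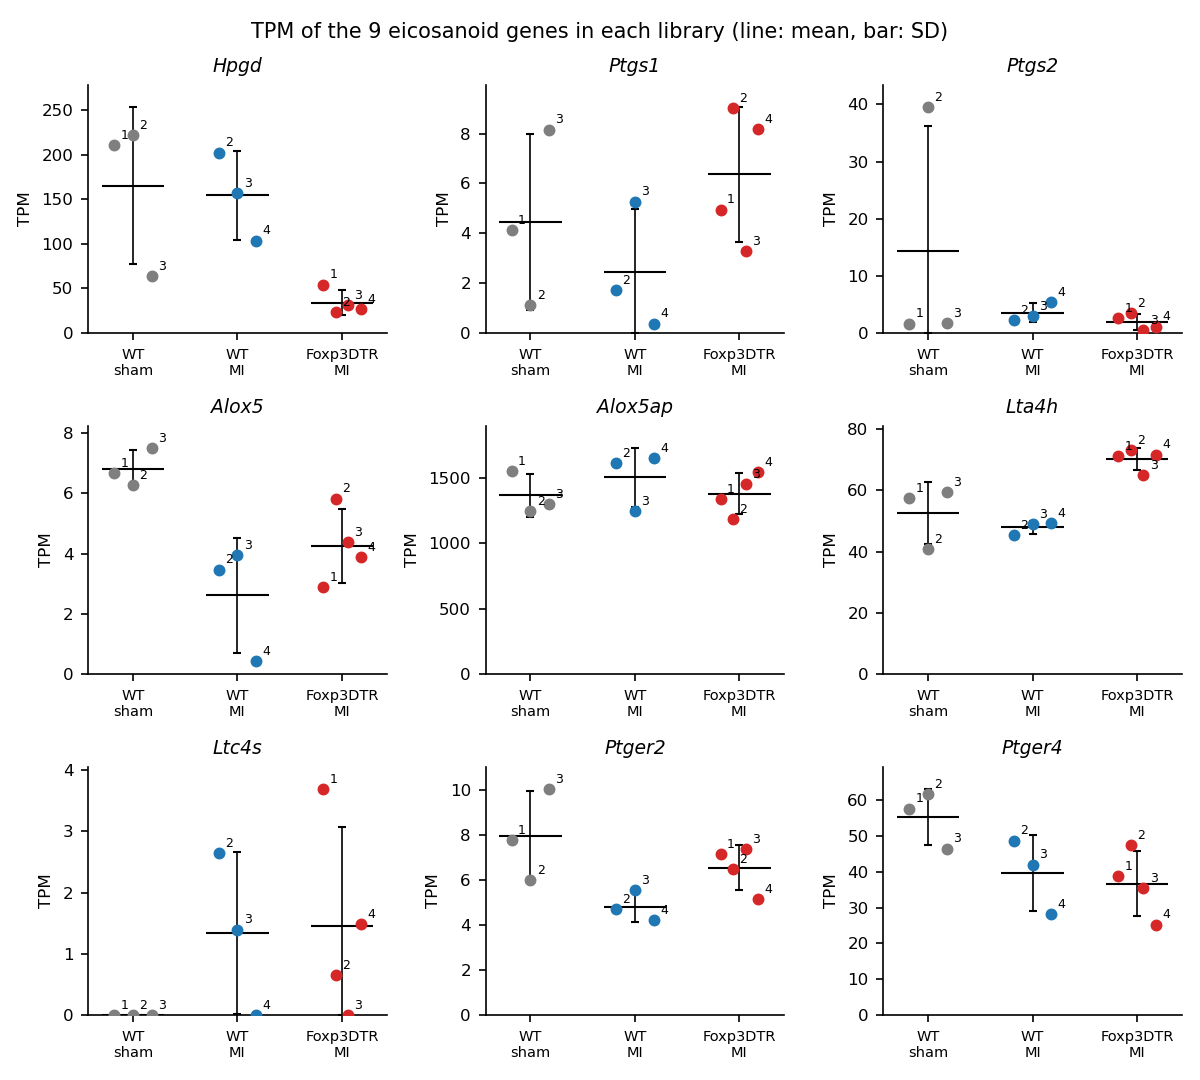
TPM of the 9 genes (vertical axes, 1 scale per gene) in each library, grouped as WT sham (n = 3), WT MI (n = 3) and Foxp3DTR MI (n = 4), with the replicate number beside each point, the group mean as a line and the SD as a bar, which is cut at 0. Hpgd lay at 23.0 to 54.1 TPM in Foxp3DTR mice and at 103 to 202 TPM in WT mice after MI, and the high Ptgs2 mean after sham surgery came from library 2 with 39.5 TPM.

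Hpgd, on chromosome 8 (mm10, plus strand, 56294552 to 56321046), was low in Foxp3DTR mice. It stood at 54.1, 23.0, 31.6 and 26.4 TPM in Foxp3DTR libraries 1 to 4, at 202, 157 and 103 TPM in WT MI libraries 2, 3 and 4, and at 210, 221 and 63.6 TPM in sham libraries 1, 2 and 3. Every Foxp3DTR library lay below every WT library, while WT libraries after MI and after sham surgery overlapped, with sham library 3 the lowest of all WT libraries. By coverage, these levels correspond to roughly 90.6 to 788 reads per library, so that Hpgd was not at the limit of detection in any of them.

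The mean Hpgd level was 33.8 ± 14.0 TPM in Foxp3DTR mice (SD, n = 4) and 154 ± 49.4 TPM in WT mice after MI (SD, n = 3), a ratio of 4.57 between WT and Foxp3DTR mice. On the log2(scaled TPM + 1) scale used for all differences, where scaling equalises the median gene between libraries, the difference was -2.42 (SE 0.44), and it ranged from -2.64 to -2.18 over 18 alternative settings. No p is given, since Hpgd was selected on this difference.

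In WT mice Hpgd differed by 0.23 on the log2 scale between MI and sham surgery (SE 0.47, limma, adjusted p = 0.985), with 165 ± 88.1 TPM after sham surgery (SD, n = 3). The sign of this difference rested on sham library 3, without which it was -0.38. Compared with sham surgery, Foxp3DTR mice after MI differed by -2.19 (SE 0.44, limma, adjusted p = 0.0640), which missed the threshold of 0.05, although the groups did not overlap. Without sham library 3, the sham library with the lowest Hpgd, the difference was -2.80 (limma, adjusted p = 0.00202). This was the only 1 of 18 alternatives under the threshold, and the adjusted p of limma ranged from 0.00202 to 0.238 over all of them. Both comparisons share libraries with the one that singled Hpgd out, so that their p values are no test of Hpgd and no separate evidence.

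Levels of other cell markers moved with Hpgd. The summed level of 12 of 13 listed markers of Ly6Clow monocytes, the patrolling subset, was 866 to 1053 TPM in Foxp3DTR mice, 1299 to 1822 TPM in WT mice after MI and 1136 to 2066 TPM after sham surgery, and its lowest WT value belonged to sham library 3, the WT library with the lowest Hpgd. Ace, one of these markers, was at 99.5, 77.9, 87.3 and 69.2 TPM in Foxp3DTR libraries, at 244, 231 and 149 TPM in WT MI libraries and at 256, 194 and 100 TPM in sham libraries, and none of the 12 was at 0 throughout a group. Of the 12, 10 had a lower mean in Foxp3DTR mice than in WT mice after MI, among them Dusp16 at 15.3 and 15.8 TPM, whereas the means of Spn (127 and 95.3 TPM) and Cd36 (6.57 and 5.16 TPM) were higher. Among the 10, the TPM of Itgal, Treml4, Eno3 and Dusp16 overlapped between these groups. Itgal and Nr4a1 made up 50.9% of the Ly6Clow sum in Foxp3DTR mice. Their means were 348 and 153 TPM there, against 382 and 272 TPM in WT mice after MI. The summed level of the 14 neutrophil markers moved the other way, with 1520 to 2852 TPM in Foxp3DTR mice, 471 to 716 TPM in WT mice after MI and 727 to 1709 TPM after sham surgery. In Foxp3DTR mice 59.0% of this sum was S100a8 and S100a9 (means of 821 and 479 TPM, against 92.2 and 21.9 TPM in WT mice after MI), and 2 of the 14 had a lower mean there, Cd177 (59.7 and 84.8 TPM) and Csf3r (158 and 163 TPM). Of these markers Retnlg was at 0 in all 3 WT MI libraries and Camp, Ltf, Mmp9 and Cxcr2 were at 0 in at least 1 of them. Likewise, 10 of 13 listed T cell markers summed to 36.0 to 146 TPM in Foxp3DTR mice, 7.68 to 11.9 TPM in WT mice after MI and 11.7 to 172 TPM after sham surgery, and Cd3e was at 2.31 to 19.0, 0 to 0.431 and 1.90 to 23.4 TPM in the same order. The part of these cells in the Hpgd difference was not tested, and in RNA of sorted populations fewer Hpgd-expressing cells and less Hpgd RNA per cell cannot be told apart.

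**Figure D2:**
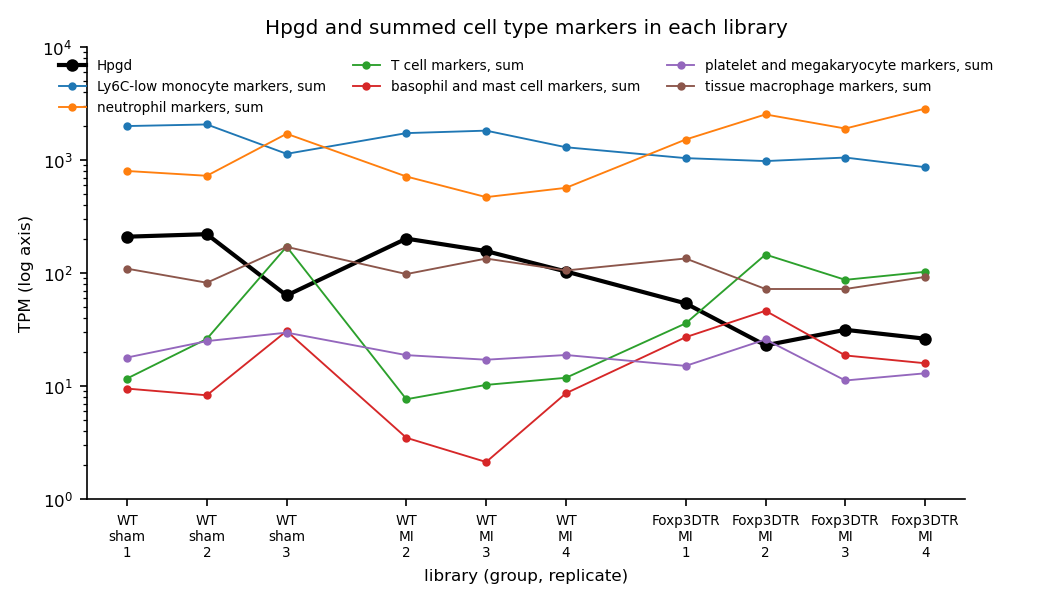
Hpgd (thick black line) and the summed markers of 6 other cell types in each library, in TPM on a log axis, with the libraries grouped by condition. Hpgd and the Ly6Clow sum (866 to 1053 TPM) were low in Foxp3DTR libraries and in sham library 3, where the neutrophil and T cell sums were high.

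The genes whose profile over the 10 libraries was most like that of Hpgd were sought among 10133 genes with a mean of at least 5 scaled TPM, by the root mean square (RMS) difference of centred log2 values. The closest were Cx3cr1, the fractalkine receptor (RMS difference 0.35), Gm1673 (0.40), Arsi, an arylsulfatase (0.42), Apoe, apolipoprotein E (0.47), Tmem176b, a membrane protein (0.50), and Soga1 (0.51), against an RMS of 1.27 for Hpgd about its own mean. Cx3cr1 stood at 50.3, 36.8, 54.2 and 40.5 TPM in Foxp3DTR libraries, at 266, 324 and 138 TPM in WT MI libraries and at 327, 250 and 137 TPM in sham libraries. It was low in the Foxp3DTR libraries and lowest among sham libraries in library 3, as was Hpgd, and it is also 1 of the 12 Ly6Clow markers summed above. Apoe stood at 159, 60.7, 168 and 187 TPM in Foxp3DTR libraries, at 886, 696 and 801 TPM in WT MI libraries and at 1049, 971 and 353 TPM in sham libraries, a difference of -2.81 between Foxp3DTR and WT mice after MI on the log2 scale. Likeness to Hpgd fixes the direction of all 6 genes in this comparison, so that it is a description of profiles, and these profiles share depth and cell composition.

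**Figure D3:**
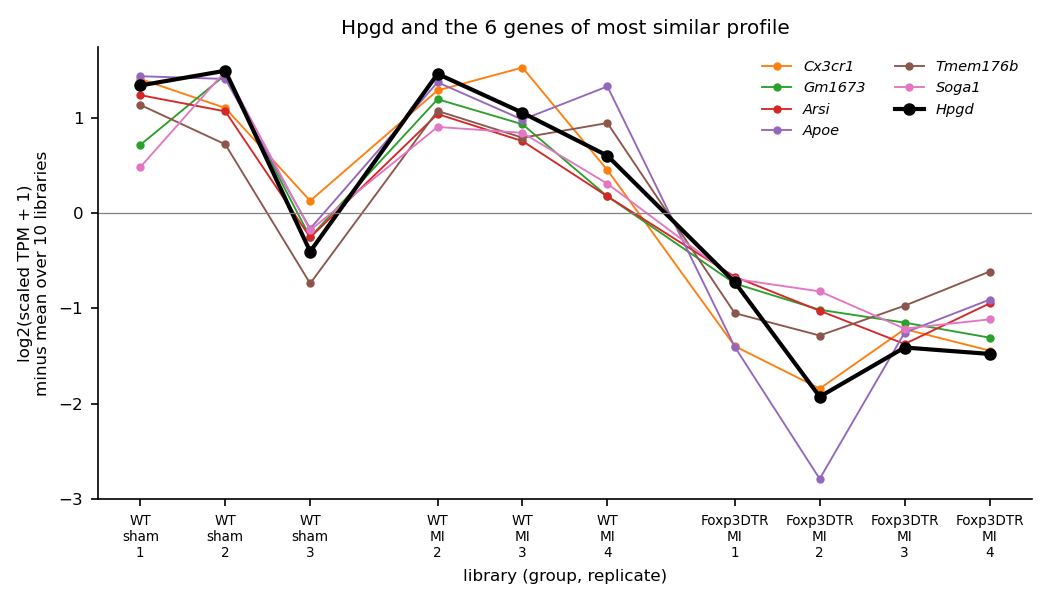
Profiles of Hpgd (thick black line) and the 6 genes closest to it over the 10 libraries, as log2(scaled TPM + 1) minus the mean of each gene. The profiles of all 7 genes lay below 0 in the 4 Foxp3DTR libraries and above 0 in the 3 WT MI libraries, and those of all but Cx3cr1 lay below 0 in sham library 3.

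The promoter windows of Hpgd and Ptgs2 are shown because Hpgd carried the main difference and Ptgs2 is the inducible enzyme upstream of it. Sequences are those of RefSeq (GRCm38.p6), 250 bases before and 50 bases from the annotated start, and 8 of the 9 genes were matched. Both strands were searched for a TATA box (TATAAA), a C/EBP site (TTGCGCAA), an E-box (CACGTG), a cyclic AMP response half-site (TGACG), a GAS element (TTCNNNGAA), an interferon response core (GAAANNGAA) and the NBRE (AAAGGTCA), the recognition sequence of NR4A receptors. Capitals mark the matches found, on the coding strand from 5′ to 3′. The Hpgd window lies at chr8:56294302-56294601 (plus strand) and the Ptgs2 window at chr1:150099781-150100080 (plus strand).
Hpgd: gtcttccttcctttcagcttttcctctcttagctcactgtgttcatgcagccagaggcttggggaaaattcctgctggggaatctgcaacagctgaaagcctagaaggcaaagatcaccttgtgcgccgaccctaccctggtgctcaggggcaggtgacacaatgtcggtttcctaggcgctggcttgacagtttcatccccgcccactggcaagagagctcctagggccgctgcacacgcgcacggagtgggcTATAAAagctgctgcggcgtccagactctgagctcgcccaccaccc
Ptgs2: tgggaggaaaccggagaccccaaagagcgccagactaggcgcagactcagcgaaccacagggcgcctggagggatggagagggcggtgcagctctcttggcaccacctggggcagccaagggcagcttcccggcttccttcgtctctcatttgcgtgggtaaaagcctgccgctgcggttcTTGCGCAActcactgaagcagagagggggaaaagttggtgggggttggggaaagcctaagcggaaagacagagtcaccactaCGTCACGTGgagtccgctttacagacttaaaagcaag
In the Hpgd window the letters TATAAA started at position 5 counted from the annotated start as 1, and so lay downstream of that start. Of 32851 promoter windows 13.6% hold such a match. The Ptgs2 window held a C/EBP site (0.183% of windows) that started 69 bases before the annotated start, and an E-box (7.15%) that shares bases with a half-site read on the minus strand (20.8%). The gene tables place the start of Ptgs2 at 150100124, downstream of this window. None of the 8 windows held the letters of the GAS element (8.30% of all windows), the interferon core (8.56%) or the NBRE (1.51%). These are matches of letters and show neither binding nor its absence.

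Of the cyclooxygenases, both were at low levels and neither differed beyond the spread between libraries. Ptgs1, the constitutive enzyme (chromosome 2, plus strand, 36230426 to 36252271), stood at 4.95, 9.03, 3.28 and 8.17 TPM in Foxp3DTR libraries, at 1.71, 5.27 and 0.372 TPM in WT MI libraries and at 4.13, 1.12 and 8.15 TPM in sham libraries. All 3 groups overlapped, and the difference between Foxp3DTR and WT mice after MI was 1.13 (SE 0.58, limma, adjusted p = 0.340), which ranged from 0.60 (without WT MI library 4) to 1.70 (without WT MI library 3) when 1 library was left out. Ptgs2, the inducible enzyme (chromosome 1, plus strand, 150100124 to 150108012), stood at 2.55, 3.47, 0.504 and 1.13 TPM in Foxp3DTR libraries, at 2.31, 2.90 and 5.41 TPM in WT MI libraries and at 1.65, 39.5 and 1.73 TPM in sham libraries.

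For Ptgs2 sham library 2 was far above all other libraries, with roughly 195 reads against 5.35 to 44.7 elsewhere. Its level differed by -0.89 between Foxp3DTR and WT mice after MI (SE 0.85, limma, adjusted p = 0.621) and by -0.48 between MI and sham surgery (SE 0.91, limma, adjusted p = 0.984), and the latter became 0.85 without sham library 2. The same library also had the lowest sequencing depth, and whether this bears on its Ptgs2 level was not tested. Together, Ptgs1 and Ptgs2 summed to 3.78 to 12.5 TPM in all libraries other than sham library 2, and the sum lay below the Hpgd level in every library.

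In the 5-lipoxygenase branch, Alox5ap was abundant in all groups. Alox5ap (chromosome 5, plus strand, 149265004 to 149288153) stood at 1339, 1188, 1452 and 1547 TPM in Foxp3DTR libraries, at 1615, 1246 and 1654 TPM in WT MI libraries and at 1553, 1250 and 1301 TPM in sham libraries. The groups overlapped in all comparisons, with a difference of -0.36 between Foxp3DTR and WT mice after MI (SE 0.20, limma, adjusted p = 0.368) and of 0.31 between MI and sham surgery (SE 0.21, limma, adjusted p = 0.960). Between Foxp3DTR mice and sham surgery the difference was -0.05 (SE 0.20, limma, adjusted p = 0.919), and its sign turned without scaling (0.014).

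Alox5 (chromosome 6, minus strand, 116410071 to 116461178) was at 2.89, 5.82, 4.39 and 3.89 TPM in Foxp3DTR libraries, at 3.47, 3.94 and 0.423 TPM in WT MI libraries and at 6.67, 6.28 and 7.50 TPM in sham libraries. All sham libraries lay above all MI libraries of either genotype. Nevertheless, the difference of -1.19 between WT mice after MI and after sham surgery did not pass the test (SE 0.42, limma, adjusted p = 0.960) and was -0.62 without WT MI library 4, nor did that of -0.65 between Foxp3DTR mice and sham surgery (SE 0.39, limma, adjusted p = 0.412). Between Foxp3DTR and WT mice after MI the difference was 0.55 (SE 0.39, limma, adjusted p = 0.502). This value rested on WT MI library 4, with roughly 2.22 reads of Alox5, and was -0.031 without it.

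Of the other 8 genes Lta4h was the only one whose Foxp3DTR libraries did not overlap with those of WT mice after MI. Lta4h, the leukotriene A4 hydrolase (chromosome 10, plus strand, 93453396 to 93484896), stood at 71.2, 73.1, 64.9 and 71.7 TPM in Foxp3DTR libraries, at 45.4, 48.9 and 49.4 TPM in WT MI libraries and at 57.5, 40.8 and 59.3 TPM in sham libraries. Foxp3DTR libraries lay above all WT libraries, and the WT groups overlapped. The mean was 70.2 ± 3.61 TPM in Foxp3DTR mice (SD, n = 4) and 47.9 ± 2.20 TPM in WT mice after MI (SD, n = 3), a difference of 0.30 (SE 0.13) that did not pass the test over all genes (limma, adjusted p = 0.255). Over the alternatives this difference was 0.24 to 0.54, with adjusted p from 0.0506 to 0.426. The corresponding difference from sham surgery was 0.37 (SE 0.13, limma, adjusted p = 0.176), and WT mice after MI differed from sham surgery by 0.07 (SE 0.14, limma, adjusted p = 0.985), which was -0.11 without scaling. Neutrophil and T cell marker sums were high in the same 4 libraries (1520 to 2852 and 36.0 to 146 TPM), and their part in the Lta4h level was not tested.

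Ltc4s, the leukotriene C4 synthase (chromosome 11, minus strand, 50236472 to 50238471), was at the edge of detection. It was listed at 0 in all 3 sham libraries, in WT MI library 4 and in Foxp3DTR library 3, and stood at 2.64 and 1.39 TPM in WT MI libraries 2 and 3 and at 3.69, 0.654 and 1.49 TPM in Foxp3DTR libraries 1, 2 and 4. Its highest value corresponds to roughly 5.19 reads, and it entered the test through MI libraries only. The difference between Foxp3DTR and WT mice after MI was -0.06 (SE 0.55, limma, adjusted p = 0.964), of either sign depending on the setting. No fold against sham surgery is given, because all sham libraries were listed at 0. Of the basophils and mast cells, which are known for Ltc4s, 9 markers summed to 16.0 to 46.5 TPM in Foxp3DTR mice, 2.14 to 8.68 TPM in WT mice after MI and 8.32 to 30.8 TPM after sham surgery. Their part in the Ltc4s level was not tested.

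The PGE2 receptor genes Ptger2 and Ptger4 were detected in every library. Ptger2 (chromosome 14, plus strand, 44988111 to 45003820) stood at 7.15, 6.47, 7.36 and 5.16 TPM in Foxp3DTR libraries, at 4.70, 5.54 and 4.20 TPM in WT MI libraries and at 7.77, 5.99 and 10.02 TPM in sham libraries. WT MI libraries lay below all sham libraries, with a difference of -0.45 that did not pass the test (SE 0.19, limma, adjusted p = 0.960). Foxp3DTR mice overlapped with both WT groups, at 0.16 against WT mice after MI (SE 0.18, limma, adjusted p = 0.672) and -0.28 against sham surgery (SE 0.18, limma, adjusted p = 0.428).

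Ptger4 (chromosome 15, minus strand, 5233399 to 5244187) was more abundant than Ptger2 in all libraries. It stood at 38.7, 47.4, 35.6 and 25.3 TPM in Foxp3DTR libraries, at 48.8, 42.1 and 28.1 TPM in WT MI libraries and at 57.7, 61.7 and 46.5 TPM in sham libraries. WT MI libraries overlapped with both other groups, and Foxp3DTR libraries lay below all sham libraries once scaled, whereas in deposited TPM Foxp3DTR library 2 was above sham library 3. The differences were -0.34 between Foxp3DTR and WT mice after MI (SE 0.19, limma, adjusted p = 0.383), -0.32 between MI and sham surgery (SE 0.21, limma, adjusted p = 0.960) and -0.66 between Foxp3DTR mice and sham surgery (SE 0.19, limma, adjusted p = 0.134).

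**Figure D4:**
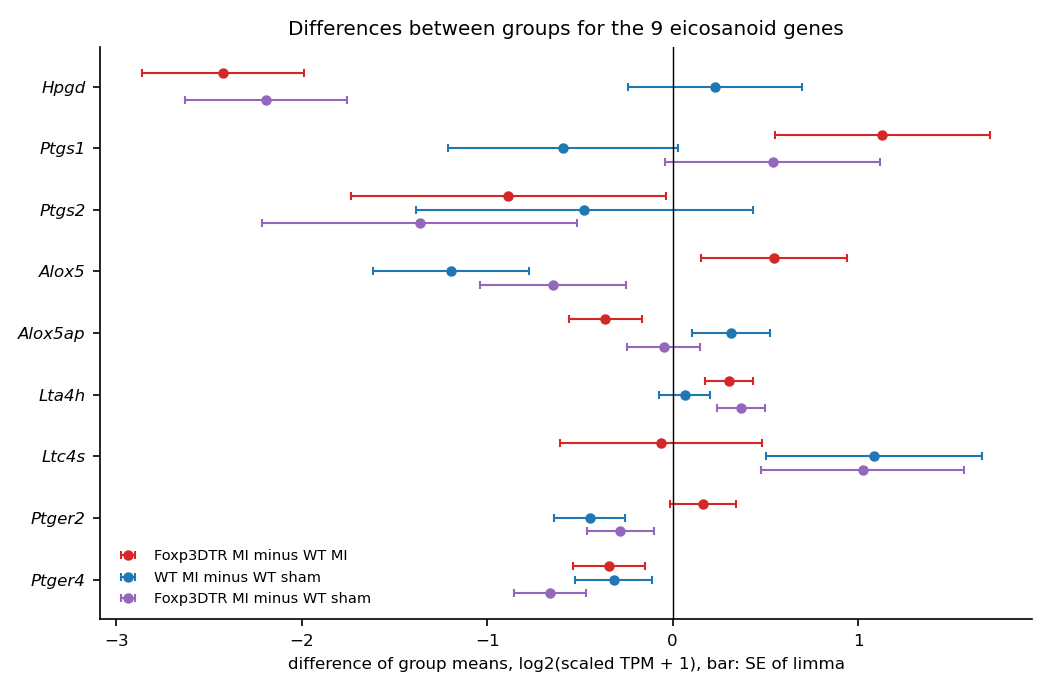
Differences between group means of the 9 genes on the log2(scaled TPM + 1) scale, with the SE of limma as bars, for the 3 comparisons. Hpgd lay at -2.42 and -2.19 in the 2 comparisons of Foxp3DTR mice and at 0.23 between MI and sham surgery, while Lta4h lay at 0.30 and 0.37 with an SE of 0.13.

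The counts for the other 8 genes are given beside those over all genes. Between Foxp3DTR and WT mice after MI, 0 of these 8 passed an adjusted p of 0.05 in limma (1 at an unadjusted p under 0.05, Lta4h), and 1 had groups that did not overlap, beside 1.12% of the 12938 genes tested that passed and 19.0% that did not overlap. Of all genes, 2295 (17.7%) were at an unadjusted p under 0.05 in this comparison. Between MI and sham surgery 0 of the 8 passed (2 at an unadjusted p under 0.05, Alox5 and Ptger2) and these 2 did not overlap, beside 0% and 6.91% of all genes. In this comparison limma called 0 of 12938 genes, with 600 (4.64%) at an unadjusted p under 0.05. Between Foxp3DTR mice and sham surgery 0 of the 8 passed (2 at an unadjusted p under 0.05, Ptger4 and Lta4h) and 3 did not overlap (Alox5, Lta4h and Ptger4), beside 0.541% and 18.2% of all genes, with 2403 (18.6%) at an unadjusted p under 0.05. The 3 comparisons share libraries and are not independent of each other. All 9 genes passed the filter on low values.

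A wider list of 70 eicosanoid genes in 8 role groups, Hpgd included, was examined in the same fit. Of the other 69 genes, 43 passed the filter and none was called in any of the 3 comparisons (limma, adjusted p under 0.05), with 12 at an unadjusted p under 0.05 between Foxp3DTR and WT mice after MI, 4 between MI and sham surgery and 10 between Foxp3DTR mice and sham surgery, beside 17.7%, 4.64% and 18.6% of all genes. Between Foxp3DTR and WT mice after MI, 27 of the 43 were higher and 16 lower by sign, with a median difference of 0.08 beside 0.00 over all genes, and 10 did not overlap between groups (23.3%, beside 19.0% of all genes). Of the 43 genes, 5 (Alox12, Cysltr2, Ephx1, Ggt1 and Ltc4s) reached the filter only with libraries of the group where they were higher, and without such genes 8 of 38 did not overlap (21.1%, beside 18.7% of all genes). The count of 0 depended on the setting. Without sham library 3 it was 3 genes (Abcc4, Daglb and Tbxas1), and without sham library 2 it was 2 (Abcc4 and Tbxas1). It was 3 without scaling (Abcc4, Mgst2 and Tbxas1) and 4 with only the 2 groups in the fit. Over all genes, 145 calls became 422, 431, 527 and 583 in the same order (of 12772, 12846, 12938 and 12553 genes tested). Sham libraries enter the comparison of Foxp3DTR and WT mice after MI only through the shared estimate of the spread, the scaling and the filter. Between Foxp3DTR mice and sham surgery the removal of sham library 3 likewise gave 3 calls, Abcc4, Daglb and Tbxas1. Over all genes, 70 calls became 636 of 12772 there.

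Among genes of prostaglandin inactivation and transport, Abcc4, a transporter that exports prostaglandins, came closest to the threshold. It stood at 71.9, 81.4, 77.5 and 69.1 TPM in Foxp3DTR libraries, at 40.2, 46.8 and 39.6 TPM in WT MI libraries and at 51.6, 42.4 and 70.0 TPM in sham libraries. Foxp3DTR libraries lay above all WT MI libraries, and sham library 3 reached their range, with a difference of 0.58 between Foxp3DTR and WT mice after MI (SE 0.13, limma, adjusted p = 0.0672). Without sham library 3 Abcc4 differed by 0.58 from WT mice after MI (limma, adjusted p = 0.0164) and by 0.58 from sham surgery (limma, adjusted p = 0.0239). That library is not part of the comparison with WT mice after MI, where the difference did not move and the SE fell from 0.13 to 0.10. Over the alternatives the Abcc4 difference from WT mice after MI was 0.53 to 0.82 (limma, adjusted p from 0.0136 to 0.183). That from sham surgery was 0.28 to 0.58 (limma, adjusted p from 0.0239 to 0.449). Neutrophil and T cell markers were high in the Foxp3DTR libraries and in sham library 3, and their part in the Abcc4 level was not tested. A microRNA gene, Mir6391, overlaps Abcc4 on the same strand. The reductases Ptgr1 and Ptgr2, which act after Hpgd in prostaglandin breakdown, differed by 0.08 and 0.09 in this comparison (limma, adjusted p = 0.891 and 0.810), and Ptgr1 was at 19.6 to 20.97 TPM in Foxp3DTR mice, 13.4 to 17.8 TPM in WT mice after MI and 6.67 to 16.4 TPM after sham surgery.

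Of the prostanoid synthases, Tbxas1, the thromboxane A synthase, was at 60.1, 62.0, 57.0 and 50.0 TPM in Foxp3DTR libraries, at 15.9, 31.5 and 20.7 TPM in WT MI libraries and at 26.3, 17.7 and 50.6 TPM in sham libraries. The Foxp3DTR libraries lay above all WT MI libraries, and the mean of 57.3 ± 5.25 TPM (SD, n = 4) was 2.52 times that of WT mice after MI (22.7 ± 8.03 TPM, SD, n = 3). The log2 difference of 1.11 did not pass the test (SE 0.29, limma, adjusted p = 0.0873). Without sham library 3 it was 1.11 (limma, adjusted p = 0.0188), with the SE down from 0.29 to 0.20, and that from sham surgery was 1.28 (limma, adjusted p = 0.0171). Over the alternatives the Tbxas1 difference from WT mice after MI was 0.88 to 1.35 (limma, adjusted p from 0.0166 to 0.212). That from sham surgery was 0.60 to 1.28 (limma, adjusted p from 0.0171 to 0.449). Neutrophil and T cell markers were high in the Foxp3DTR libraries and in sham library 3, and their part in the Tbxas1 level was not tested. Tbxas1 overlaps 1700025N23Rik on the other strand (1.77 to 14.5 TPM). The cytosolic prostaglandin E synthase Ptges3 stood at 118 ± 22.7 TPM in Foxp3DTR mice (SD, n = 4) and 88.9 ± 19.9 TPM in WT mice after MI (SD, n = 3), with a difference of 0.17 (limma, adjusted p = 0.623). Akr1b3 and Cbr1 differed by -0.10 and -0.49 (limma, adjusted p = 0.773 and 0.290).

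Of the genes of arachidonate release and reacylation, the diacylglycerol lipase Daglb was at 44.9, 48.2, 45.0 and 40.1 TPM in Foxp3DTR libraries, at 52.1, 50.2 and 52.3 TPM in WT MI libraries and at 73.0, 66.1 and 49.4 TPM in sham libraries. Foxp3DTR libraries lay below all WT libraries on the scaled values, with differences of -0.45 from WT mice after MI (SE 0.14, limma, adjusted p = 0.137) and -0.53 from sham surgery (SE 0.14, limma, adjusted p = 0.107). Without sham library 3 these were -0.45 (limma, adjusted p = 0.0298) and -0.72 (limma, adjusted p = 0.00687). The difference from WT mice after MI did not move, and its SE fell from 0.14 to 0.09. Over the alternatives the Daglb difference from WT mice after MI was -0.50 to -0.21 (limma, adjusted p from 0.0284 to 0.350). That from sham surgery was -0.72 to -0.42 (limma, adjusted p from 0.00687 to 0.346). The other genes of this group named by level, Mboat7, Acsl4 and Pla2g15, differed by 0.03, 0.23 and 0.07 between Foxp3DTR and WT mice after MI (limma, adjusted p = 0.908, 0.445 and 0.856).

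In leukotriene synthesis and breakdown, 5 of 8 tested genes did not overlap on scaled values between Foxp3DTR and WT mice after MI, beside 19.0% of all genes. Of these, Lta4h, Mgst2 and Ggt1 were higher and Cyp4f18 and Ggt5 lower. Without Ggt1 and Ltc4s, which reached the filter only with libraries of the group where they were higher, it was 4 of 6 beside 18.7%. By contrast, 0 of 5 prostanoid receptors did not overlap, and 0 of 3 genes of the lipoxygenase group (Alox5, Alox12 and the activating protein gene Alox5ap). The leukotriene synthesis group was singled out after these counts were seen. Mgst2, a microsomal glutathione transferase that can make leukotriene C4, and Ggt1 and Ggt5, which trim it, are named after their values were seen. Mgst2 was at 2.74, 3.03, 2.71 and 7.38 TPM in Foxp3DTR libraries, at 0.572, 0.532 and 0 TPM in WT MI libraries and at 1.54, 3.89 and 4.44 TPM in sham libraries. WT MI libraries were thus the low group, with differences of 1.70 between Foxp3DTR and WT mice after MI (SE 0.41, limma, adjusted p = 0.0720) and -1.55 between MI and sham surgery (SE 0.43, limma, adjusted p = 0.960). Cyp4f18, which degrades leukotriene B4, differed by -0.38 between Foxp3DTR and WT mice after MI (SE 0.12, limma, adjusted p = 0.129), with 153 ± 8.39 TPM (SD, n = 4) and 169 ± 7.41 TPM (SD, n = 3). Its groups were apart only once scaled. In deposited TPM Foxp3DTR library 1 (160.8 TPM) was above WT MI library 2 (160.2 TPM). Dpep2, a dipeptidase of leukotriene D4, had 178 TPM in WT MI library 4 and 38.4 to 90.3 TPM in all others, and Mgst3 differed by 0.58 (limma, adjusted p = 0.308).

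The receptors also did not pass the test. For prostanoids, Ptgir, the prostacyclin receptor, was at 34.4 ± 5.69 TPM in Foxp3DTR mice (SD, n = 4), 43.8 ± 14.7 TPM in WT mice after MI (SD, n = 3) and 54.6 ± 8.60 TPM after sham surgery (SD, n = 3), a difference of -0.53 from WT mice after MI (limma, adjusted p = 0.224) and of -0.71 from sham surgery (limma, adjusted p = 0.135). Ptger1 was at 73.0 to 103 TPM, a level that is uncertain because the strand setting of the tables was not found. For lipoxins and leukotrienes, Fpr2, a receptor of lipoxin A4 that is also abundant in neutrophils, was at 131 ± 43.7 TPM in Foxp3DTR mice (SD, n = 4) and 61.0 ± 19.4 TPM in WT mice after MI (SD, n = 3), a difference of 0.84 (SE 0.33, limma, adjusted p = 0.219). Neutrophil markers were high in the same Foxp3DTR libraries, and their part was not tested. The leukotriene receptors Ltb4r1, Cysltr1 and Cysltr2 differed by 0.02, 0.21 and 1.11 (limma, adjusted p = 0.965, 0.358 and 0.248), Cysltr2 being at 3.20 TPM or less in every library.

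Lipoxygenases other than Alox5 were near absent, with Alox12 at 0.355 to 1.66 TPM and Alox15 at 0 to 1.20 TPM. The epoxyeicosanoid enzymes Ephx1, Cyp2s1, Ephx2 and Cyp2j6 did not exceed 1.51, 0.915, 0.353 and 0.347 TPM. Of the 26 listed genes that did not pass the filter, 3 (Ptgds, Alox12b and Dpep1) were listed at 0 in all 10 libraries.

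**Figure D5:**
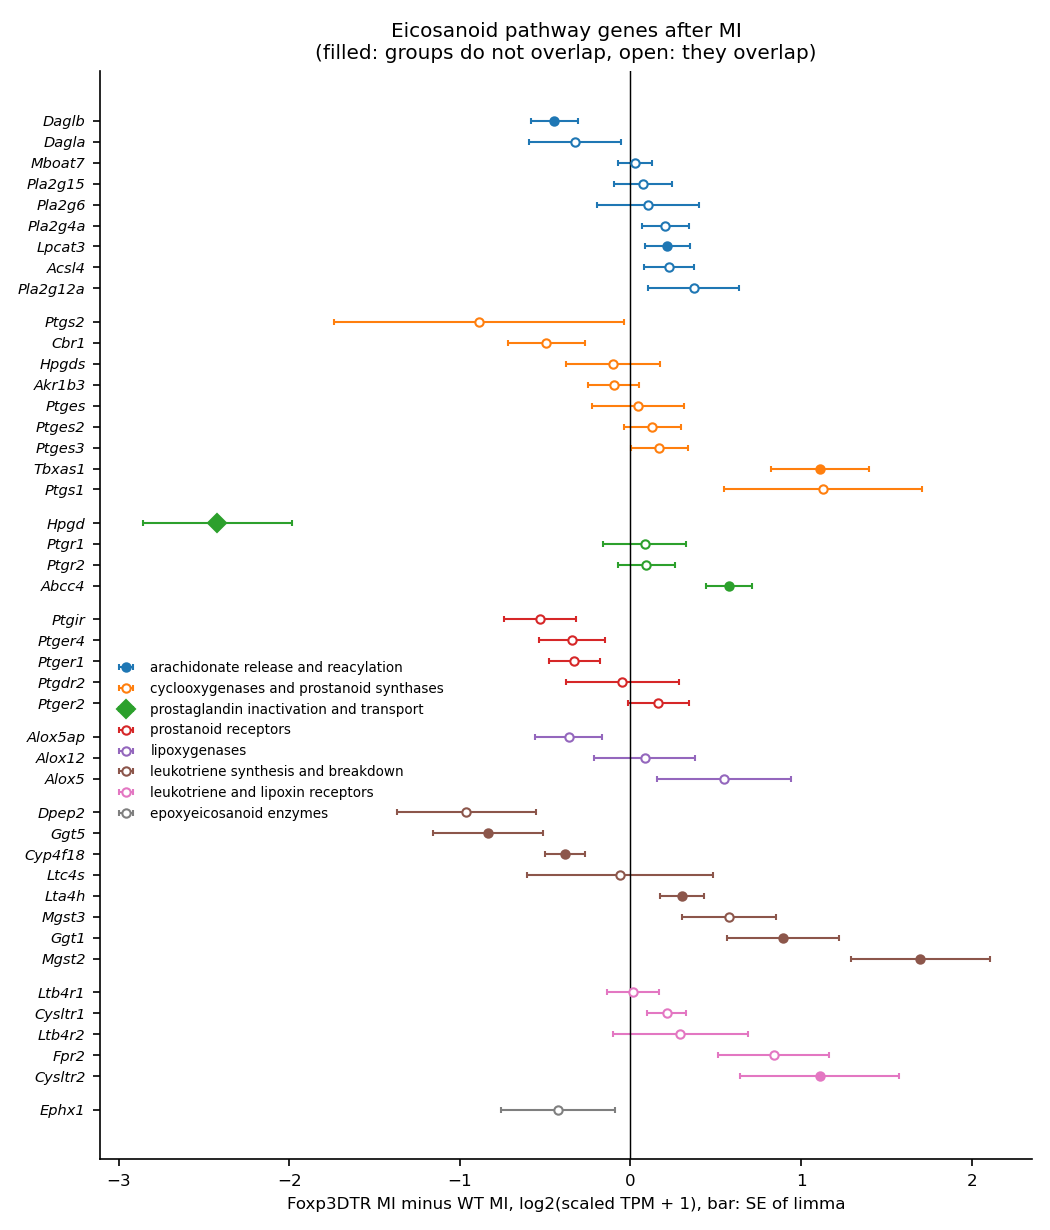
Difference between Foxp3DTR and WT mice after MI for the 44 eicosanoid genes that passed the filter, on the log2(scaled TPM + 1) scale with the SE of limma as bars, coloured by role group, with filled symbols where the groups did not overlap. Hpgd (diamond) lay at -2.42, and the other 43 genes lay between -0.96 (Dpep2) and 1.70 (Mgst2).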

How the data were processed

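RNA sequencing of Ly6Chigh monocytes was analysed in 10 libraries, grouped by their sample titles. The authors deposited 1 StringTie table per library with the coverage of each gene (a signal), its FPKM and its TPM, all per gene without pooling. The deposited FPKM is per kilobase of gene and per library size, whereas the deposited TPM adds up to 1e+06 per library, and abundant RNAs that change therefore shift all others. Libraries were made from 20 to 50 pg of RNA and read in single-end mode of 50 bp. Per the submitters' processing notes the build was mm10 and the tools were StringTie 1.3.0, STAR 2.5, cutadapt 1.1 and CASAVA 1.4. The strand setting was not found in the labels or the methods. The authors' own test, DESeq2, was not used, because the tables hold no counts.

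TPM was summed per symbol and scaled between libraries by median-of-ratios factors. Of all symbols, 12938 reached 1 TPM in 3 or more libraries and were tested with a pseudocount of 1, in 1 limma 3.58.1 fit (R 4.3.3, variance trend) of the 3 groups. Log2 differences on this scale understate changes of low genes. Tests are two-sided, and adjusted p values are Benjamini-Hochberg over all tested genes. Overlap between groups was judged on scaled values. Without scaling the median gene moved by 0.22 (Foxp3DTR against WT after MI), -0.17 (MI against sham surgery) and 0.05 (Foxp3DTR against sham surgery). Depth was read from coverage divided by FPKM, which was constant within 1% for 84.9 to 85.2% of entries, and read numbers per gene are approximate (coverage times transcript length over read length, GENCODE lengths). TPM carries no counting error, so that single values have no interval, and 0 is written as listed at 0.

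The 9 genes, the lists and the tests were chosen with earlier results of these data known. Named are the 9 genes, every gene of the wider list past the threshold and up to 4 per role group of highest mean, and the 6 genes closest to Hpgd. Others are said to be named after their values were seen, or are named where a count or a marker result turns on them. The fit was tested on simulated data. Alternatives were no scaling, quantile normalization, pseudocounts of 0.1 and 5, a filter at 5 TPM or none, only the 2 groups compared, the replicate number as a block and the removal of each library. No protein sequence was used here, and some values of single genes are not reported here.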

Additional observations from a re-analysis of the deposited data

Results flagged for a closer look

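Of 41 named genes checked in the 4 Foxp3DTR libraries, 1 had a single library far from the others. Ptger1, the gene of the PGE2 receptor EP1, was at 95.6 TPM in Foxp3DTR library 3 and at 75.3 to 78.5 TPM in the other libraries of the group, a gap of 0.846 of the whole range, above Dixon's 95% critical value of 0.829 for 4 libraries. Chance alone picks about 1 in 20 groups in this way, and the groups of 3 libraries were not tested. The level of Ptger1 is uncertain because the strand setting of the tables was not found.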

How the results depend on the processing

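The Hpgd difference between Foxp3DTR and WT mice after MI kept its direction in all 18 alternatives (-2.64 to -2.18). The eicosanoid genes other than Hpgd called in this comparison, 0 as reported, were 3 without scaling and 4 with only the 2 groups in the fit, and 0 to 3 when 1 library was left out. Between Foxp3DTR mice and sham surgery the latter range was also 0 to 3, reached without sham library 3, and between MI and sham surgery it was 0 throughout. Over all genes, 145 calls between Foxp3DTR and WT mice after MI became 527 without scaling, 583 with only the 2 groups, 22 without the filter, 81 with the block and 0 (without WT MI library 2) to 431 (without sham library 2) when 1 library was left out, and 70 calls between Foxp3DTR mice and sham surgery became 23 with a pseudocount of 0.1, 11 without the filter, 10 with only the 2 groups, 16 with the block and 3 to 636 (without sham library 3) when 1 library was left out. The causes were not tested. When 1 library was left out, Hpgd ranged from -0.38 to 0.57 between MI and sham surgery and from -2.80 to -1.85 between Foxp3DTR mice and sham surgery, Ptgs2 from -1.14 to 0.85 and Lta4h from -0.073 to 0.14 between MI and sham surgery, Alox5 from -0.031 to 0.87 and Ltc4s from -0.61 to 0.38 between Foxp3DTR and WT mice after MI, and Ptgs1 from -5.4e-04 to 1.01 and Alox5ap from -0.16 to 0.054 between Foxp3DTR mice and sham surgery. Ltc4s between Foxp3DTR and WT mice after MI was 0.026 without scaling and 0.012 with a pseudocount of 0.1, Lta4h between MI and sham surgery was -0.11 and Alox5ap between Foxp3DTR mice and sham surgery 0.014 without scaling. Ptgs2 and Ltc4s have no value under the filter at 5 TPM. The replicate numbers are not known to pair the libraries. Correlations were -0.19 to 0.19 over 8 pairs of equal number, 1 of them over 0.1, and so few pairs cannot exclude a shared batch. With the replicate block Hpgd was at -2.64 between Foxp3DTR and WT mice after MI, and 0 other eicosanoid genes were called in any comparison. Depth limits Ltc4s, Alox5 and Ptgs1, with roughly 0 to 5.19, 2.22 to 57.7 and 1.98 to 63.7 reads per library.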
